A study of Homo sapiens with 12 samples.

Results

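Cholesterol and fatty acid synthesis genes were followed in T47D cells, an established human breast cancer line that expresses the estrogen receptor, with and without ectopic HOXB13, a homeobox transcription factor. The set held 40 listed genes of the 55882 symbols in the count table. Of these, 25 belong to the sterol pathway, with 18 enzymes, 5 regulators of the SREBP transcription factors and 2 sterol transport genes, and 15 make, lengthen or desaturate fatty acids. The 12 RNA-seq libraries formed 4 groups of 3: HOXB13 cells in 2 nM estradiol, HOXB13 cells in vehicle, control cells in 2 nM estradiol and control cells in vehicle. The vehicle was ethanol, the exposure lasted 24 h, and cells of all groups had first been kept for 72 h in 10% charcoal-stripped serum, from which steroid hormones and other lipophilic molecules have been removed. The study asked how ectopic HOXB13 changes expression with and without the hormone. The labels do not say whether the control cells carried an empty vector, nor whether the HOXB13 line was a clone or a pool.

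Cells build cholesterol from acetyl-CoA through mevalonate, squalene and lanosterol, and SREBP transcription factors drive the genes of that route. SCAP carries the SREBP precursors to the Golgi, where they are cut and released, while INSIG proteins hold SCAP in the endoplasmic reticulum when sterols are plentiful. Fatty acid synthesis starts from the same acetyl-CoA: ACLY supplies it in the cytosol, ACACA carboxylates it, FASN makes palmitate, and elongases and desaturases make the longer and unsaturated acids. The product of SREBF2 is known mainly for sterol genes and that of SREBF1 mainly for fatty acid genes.

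Promoters from 250 bases before to 50 bases after the gene start (RefSeq, build GRCh38.p14) were matched by symbol for 36 of the 40 genes, all but ACAT2, FDFT1, SQLE and FASN. Both strands were searched for 3 motifs, none of which contains another: the core of the sterol regulatory element, TCACNCCAC, where SREBPs bind, the NF-Y box, CCAAT, bound by a factor that acts beside SREBPs, and the GC box, GGGCGG. The sterol core was found in 1 of the 36 promoters, that of SREBF2, and in 1.13% of the 35116 promoters in the table. The NF-Y box was found in 15 of 22 sterol pathway promoters (68.2%), in 6 of 14 fatty acid promoters (42.9%) and in 34.6% of all promoters. The GC box stood in 95.5% of the sterol pathway promoters, in 71.4% of the fatty acid promoters and in 45.0% of all. For each member only the first promoter listed was searched, so other starts of the same gene were not covered. The shares of all promoters were taken over every entry, where a gene may have several. A match is a stretch of letters and not a measured binding site. Below are the promoter with the sterol core (SREBF2, chr22:41832855-41833154, plus strand), 3 promoters of enzymes called with estradiol (HMGCS1, chr5:43313363-43313662, minus strand; FDPS, chr1:155308616-155308915, plus strand; EBP, chrX:48521558-48521857, plus strand) and that of SREBF1 (chr17:17836937-17837236, minus strand), which was called in the opposite direction. The 3 enzymes were those with the most NF-Y boxes among called enzymes with a matched promoter, HMGCS1 being tied with HSD17B7 and DHCR7. SREBF1 was also chosen after the motif counts were seen. The difference in boxes between it and these enzymes was thus set by the choice and is no result. Each is written 5′ to 3′ on the gene's own strand, and capitals mark the sterol core in SREBF2 and the NF-Y box, read on either strand, in the others.
SREBF2: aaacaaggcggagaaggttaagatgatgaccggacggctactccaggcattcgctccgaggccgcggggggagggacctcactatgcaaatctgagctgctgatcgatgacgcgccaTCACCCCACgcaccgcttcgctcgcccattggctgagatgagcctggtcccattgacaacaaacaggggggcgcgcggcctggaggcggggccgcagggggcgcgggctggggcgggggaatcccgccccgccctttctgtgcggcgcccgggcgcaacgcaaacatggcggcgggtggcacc
HMGCS1: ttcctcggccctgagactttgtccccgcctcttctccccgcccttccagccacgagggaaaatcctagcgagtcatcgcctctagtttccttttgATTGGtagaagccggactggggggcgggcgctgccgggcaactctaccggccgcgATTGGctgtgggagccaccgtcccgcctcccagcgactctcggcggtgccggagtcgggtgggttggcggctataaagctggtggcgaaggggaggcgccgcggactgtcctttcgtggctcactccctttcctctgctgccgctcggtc
FDPS: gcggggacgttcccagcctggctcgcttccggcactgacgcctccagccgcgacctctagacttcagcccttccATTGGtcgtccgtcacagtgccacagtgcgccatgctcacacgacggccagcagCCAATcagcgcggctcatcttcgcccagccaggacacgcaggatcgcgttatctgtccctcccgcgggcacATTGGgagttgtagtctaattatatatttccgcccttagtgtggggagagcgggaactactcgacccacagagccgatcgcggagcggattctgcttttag
EBP: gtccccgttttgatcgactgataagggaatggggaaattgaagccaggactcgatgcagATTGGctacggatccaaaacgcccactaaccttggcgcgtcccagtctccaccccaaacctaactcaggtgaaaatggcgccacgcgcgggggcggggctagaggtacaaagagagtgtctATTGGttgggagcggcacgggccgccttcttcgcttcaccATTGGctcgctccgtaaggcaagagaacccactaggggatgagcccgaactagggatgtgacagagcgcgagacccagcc
SREBF1: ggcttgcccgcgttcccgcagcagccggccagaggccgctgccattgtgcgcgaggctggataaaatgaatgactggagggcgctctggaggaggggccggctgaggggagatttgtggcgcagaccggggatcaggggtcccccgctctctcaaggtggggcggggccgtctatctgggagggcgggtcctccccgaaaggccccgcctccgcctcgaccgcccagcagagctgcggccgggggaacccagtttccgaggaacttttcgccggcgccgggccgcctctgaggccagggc
HMGCS1 shows 2 NF-Y boxes, FDPS and EBP show 3 each, and SREBF1 shows 0. The promoters of IDI1, ELOVL2 and FADS1, which were called higher, also hold 0. Of the sterol enzymes not called, PMVK and CYP51A1 hold 0, TM7SF2 and SC5D 1 each, MVD 3, MSMO1 4, and MVK and NSDHL 5 each.

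Libraries held 17679824 to 21385996 counts, and 39 of the 40 genes were among the 14799 that passed the filter on low counts. The exception was ME1, which makes NADPH for fatty acid synthesis and had 0 to 6 counts per library. THRSP, a regulator of lipogenesis in liver and mammary gland, passed with 4 to 20 counts, so its values are imprecise. HOXB13 itself had 92 to 112 counts in the 6 HOXB13 libraries and 0 to 2 in the 6 control libraries. In the HOXB13 libraries this was 4.79 to 5.84 CPM (normalised read counts, scaled to library size). All 8 luminal epithelial markers were well covered, with EPCAM at 161 to 195 CPM. With estradiol 3 of the 8 were lower in HOXB13 cells, where 6.38% of all tested genes were. These were CDH1, by a log2 fold change of −0.56, GATA3 (−0.43) and FOXA1 (−0.38). In control cells 1 of the 8 was lower (CDH1, −0.44), where 6.72% were, and 0 were higher in either. With the replicate block 1 was higher and 4 lower in HOXB13 cells (15.5% and 15% of all tested genes). In control cells 2 were higher and 3 lower (17.5% and 16.5%). The higher ones were KRT8 in both (0.29 in HOXB13 cells and 0.40 in control cells) and KRT18 in control cells (0.22). The part of these markers in the results was not tested. Of the 6 adipocyte markers, LEP had 0 counts in every library, CIDEC reached 1, PLIN1 2, FABP4 7, LPL 16 and ADIPOQ 28 counts. ADIPOQ alone of these passed the filter, and with the replicate block it was lower in estradiol in HOXB13 cells (adjusted p = 0.0262). Of 7 leukocyte, endothelial and stromal markers, CDH5 had 0 counts in every library, PDGFRB reached 2, PTPRC and CD68 4 each, DCN 17 and COL1A2 28 counts. COL1A1, a collagen gene, had 974 to 1288 counts, or 51.5 to 64.1 CPM. The 4 libraries numbered 2, 1 in each group, stood apart from the other 8 on the second principal component (17.8% of the variance). In all 4 groups the library numbered 2 was the highest of its group for 7 sterol pathway genes (MVK, PMVK, MVD, FDPS, TM7SF2, NSDHL and SREBF1) and for ELOVL1, and the lowest for SQLE, MSMO1, NPC1, ACLY, ACACA and SCD. Counts below are therefore also given with the replicate number as a block and without those 4 libraries. The labels do not say that replicates were separate cultures, so p-values cover only how far these libraries differ, and that may be technical variation.

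Enzymes from several stages of sterol synthesis were higher in estradiol, and 0 of the 18 were lower in either kind of cells, also at an unadjusted p under 0.05. By edgeR's quasi-likelihood test (Benjamini-Hochberg adjusted p under 0.05), 6 of 18 enzymes were higher in estradiol and 0 lower in HOXB13 cells (13 and 0 with the replicate block), where 7.22% of all tested genes were higher and 6.38% lower. In control cells 9 of 18 were higher and 0 lower (16 and 0 with the block), where 8.65% of all genes were higher and 6.72% lower. These shares are without the block. With it, 15.5% of all tested genes were higher and 15% lower in HOXB13 cells, and 17.5% and 16.5% in control cells. The median log2 fold change of the enzymes was 0.29 in HOXB13 cells and 0.38 in control cells, against −0.01 over all tested genes in each. In both kinds of cells 16 of the 18 enzymes were fitted above 0, the exceptions being TM7SF2 and SC5D, against 49.0% of all tested genes in HOXB13 cells and 48.7% in control cells. In RNA from whole cultures, fewer cells of a type and less RNA per cell cannot be told apart.

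**Figure D1:**
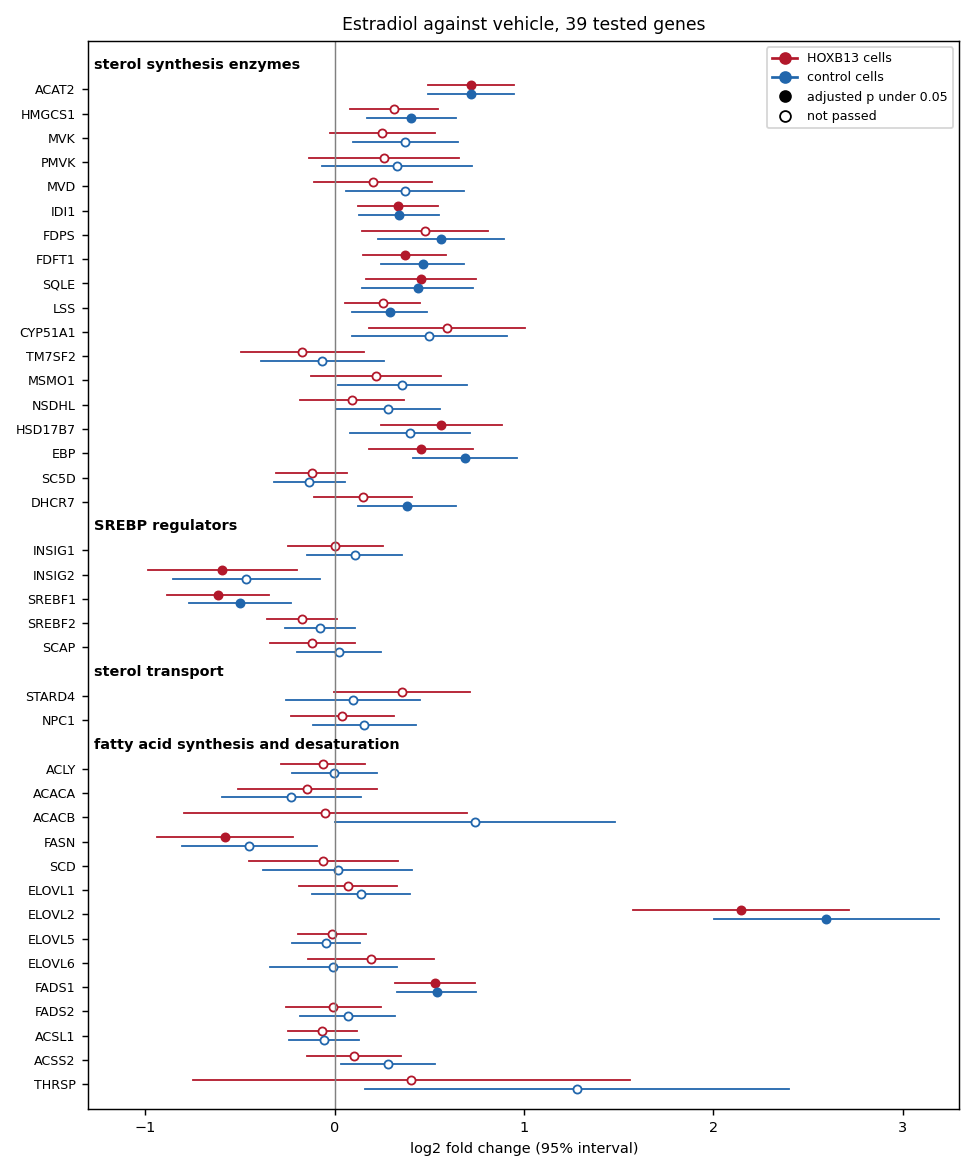
Log2 fold change of estradiol against vehicle (x axis, with 95% intervals) for the 39 tested genes, in HOXB13 cells (red, upper) and control cells (blue, lower); filled points passed the adjusted p threshold. Most sterol enzymes lie right of 0, with medians of 0.29 in HOXB13 cells and 0.38 in control cells, whereas most fatty acid genes lie near 0 and ELOVL2 lies above 2 in both.

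The first steps of the route condense acetyl-CoA into HMG-CoA. ACAT2, the cytosolic acetoacetyl-CoA thiolase, had 109, 109.5 and 106 CPM in HOXB13 cells in estradiol and 66.9, 67.4 and 62.9 CPM in HOXB13 cells in vehicle. In control cells it had 96.6, 104 and 112 CPM in estradiol and 54.8, 71 and 64 CPM in vehicle. Every estradiol library lay above every vehicle library. On the log2 scale the change (± SE) was 0.72 ± 0.11 in HOXB13 cells (adjusted p = 0.000514) and 0.72 ± 0.11 in control cells (adjusted p = 0.000376), a rise of 1.65-fold and 1.65-fold. Both calls held without any single library of the 12. HMGCS1, the HMG-CoA synthase, had 175, 155 and 189.8 CPM in HOXB13 cells in estradiol and 134, 136 and 147 CPM in vehicle, and 180.2, 193 and 205 CPM in control cells in estradiol against 131, 142 and 164 CPM in vehicle. The groups did not overlap, and the log2 fold change was 0.32 ± 0.11 in HOXB13 cells (adjusted p = 0.0716, and 0.00127 with the replicate block) and 0.41 ± 0.11 in control cells (adjusted p = 0.0202).

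The mevalonate steps come next. MVK and PMVK, the kinases that phosphorylate mevalonate, and MVD, the decarboxylase after them, had log2 fold changes of 0.25, 0.26 and 0.20 in HOXB13 cells and 0.37, 0.33 and 0.37 in control cells. None of the 3 passed in either (adjusted p = 0.0666 at the least). In each group the library numbered 2 was their highest, and with the replicate block MVK and PMVK passed in both kinds of cells and MVD in control cells (adjusted p = 0.0526 in HOXB13 cells).

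The isoprenoid steps that follow lead to squalene. IDI1, the isopentenyl diphosphate isomerase, had 222, 202 and 243 CPM in HOXB13 cells in estradiol and 179.7, 173 and 176 CPM in vehicle, with a log2 fold change of 0.33 ± 0.10 (adjusted p = 0.0351). In control cells it had 217, 240.1 and 244 CPM in estradiol and 169.6, 188 and 195 CPM in vehicle, with a log2 fold change of 0.34 ± 0.10 (adjusted p = 0.0293). FDPS, which makes farnesyl diphosphate, and FDFT1, the squalene synthase that commits it to sterols, followed. FDPS had 235, 283 and 224 CPM in HOXB13 cells in estradiol and 177, 202 and 153 CPM in vehicle, and 229, 286 and 253 CPM in control cells in estradiol against 143, 215 and 163 CPM in vehicle. Its log2 fold change was 0.48 ± 0.16 in HOXB13 cells (adjusted p = 0.0555, and 3.64e-05 with the replicate block) and 0.56 ± 0.16 in control cells (adjusted p = 0.0235). FDFT1 had 380.0, 379 and 372 CPM in HOXB13 cells in estradiol and 284, 311 and 279.7 CPM in vehicle, and 356, 405 and 385 CPM in control cells in estradiol against 241, 306 and 283 CPM in vehicle. Estradiol and vehicle libraries did not overlap for IDI1, FDPS or FDFT1 in either kind of cells. The log2 fold change of FDFT1 was 0.37 ± 0.10 in HOXB13 cells (adjusted p = 0.0263) and 0.47 ± 0.10 in control cells (adjusted p = 0.00621).

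Squalene is then oxidised and closed into lanosterol. SQLE, the squalene epoxidase and a rate-limiting step, had 366, 328 and 398 CPM in HOXB13 cells in estradiol and 271, 229 and 296 CPM in vehicle, and 359.8, 327 and 393 CPM in control cells in estradiol against 243, 235 and 319 CPM in vehicle. SQLE rose by 0.46 ± 0.14 on the log2 scale in HOXB13 cells (adjusted p = 0.039) and 0.44 ± 0.14 in control cells (adjusted p = 0.0423). LSS, the lanosterol synthase, had 244, 256 and 231 CPM in HOXB13 cells in estradiol and 207, 207 and 199 CPM in vehicle, and 236, 264 and 259.8 CPM in control cells in estradiol against 199.9, 226 and 194 CPM in vehicle. All estradiol libraries lay above the vehicle libraries of the same cells for both genes, by a small margin for SQLE in control cells. The log2 fold change of LSS was 0.25 ± 0.09 in HOXB13 cells (adjusted p = 0.0892, and 0.0061 with the replicate block) and 0.29 ± 0.09 in control cells (adjusted p = 0.0475).

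The steps after lanosterol were mixed. EBP, a sterol isomerase, had 147, 141 and 134 CPM in HOXB13 cells in estradiol and 109.5, 102 and 96 CPM in vehicle, and 143, 170.5 and 166 CPM in control cells in estradiol against 80.5, 118 and 98.8 CPM in vehicle. It rose by 0.46 ± 0.13 on the log2 scale in HOXB13 cells (adjusted p = 0.0293) and by 0.69 ± 0.13 in control cells (adjusted p = 0.00215). HSD17B7, a sterol ketoreductase, had 20.1, 21.1 and 22.2 CPM in HOXB13 cells in estradiol and 14.2, 14.6 and 14 CPM in vehicle, and 16.8, 23.2 and 20.9 CPM in control cells in estradiol against 12.5, 17 and 16.8 CPM in vehicle. The groups of HOXB13 cells did not overlap, whereas those of control cells did. Its log2 fold change was 0.56 ± 0.15 in HOXB13 cells (adjusted p = 0.0213) and 0.40 ± 0.15 in control cells (adjusted p = 0.0879, and 0.00952 with the replicate block). DHCR7, the reductase of a last step to cholesterol, had 554, 603 and 484 CPM in HOXB13 cells in estradiol and 512, 510.1 and 458 CPM in vehicle, and 535, 634 and 586 CPM in control cells in estradiol against 386, 509 and 453 CPM in vehicle. It overlapped between treatments in HOXB13 cells, with a log2 fold change of 0.15 ± 0.12 (adjusted p = 0.488), and not in control cells, with 0.38 ± 0.12 (adjusted p = 0.0467). The difference between these responses was −0.23 ± 0.17 (adjusted p = 1), so a different response of the 2 kinds of cells was not shown.

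The other enzymes after lanosterol did not pass. CYP51A1, the lanosterol demethylase, had 20.4, 15.3 and 22.8 CPM in HOXB13 cells in estradiol and 14.5, 10.5 and 13.8 CPM in vehicle, and 22.2, 15.8 and 20.7 CPM in control cells in estradiol against 16, 13.9 and 11.5 CPM in vehicle. Its log2 fold changes of 0.59 (adjusted p = 0.0558) and 0.50 (adjusted p = 0.0971) were as large as those of genes that passed, at a lower count and with a wider spread, and both passed with the replicate block. MSMO1, a methyl oxidase, had log2 fold changes of 0.22 in HOXB13 cells and 0.36 in control cells and passed in both with the block. NSDHL, a decarboxylating dehydrogenase, had 0.09 and 0.28 and passed with the block in control cells. TM7SF2, a sterol reductase, had −0.17 in HOXB13 cells and −0.06 in control cells. SC5D, a sterol desaturase, had −0.12 and −0.13, and neither passed under the block (adjusted p = 0.0731 at the least). In GENCODE annotation of GRCh38, 79.4% of the exon bases of CYP51A1 are shared on the same strand with AC000120.2, listed as protein-coding. The deposited counts have no entry of that name. Reads of CYP51A1 may be split, which was not tested.

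**Figure D2:**
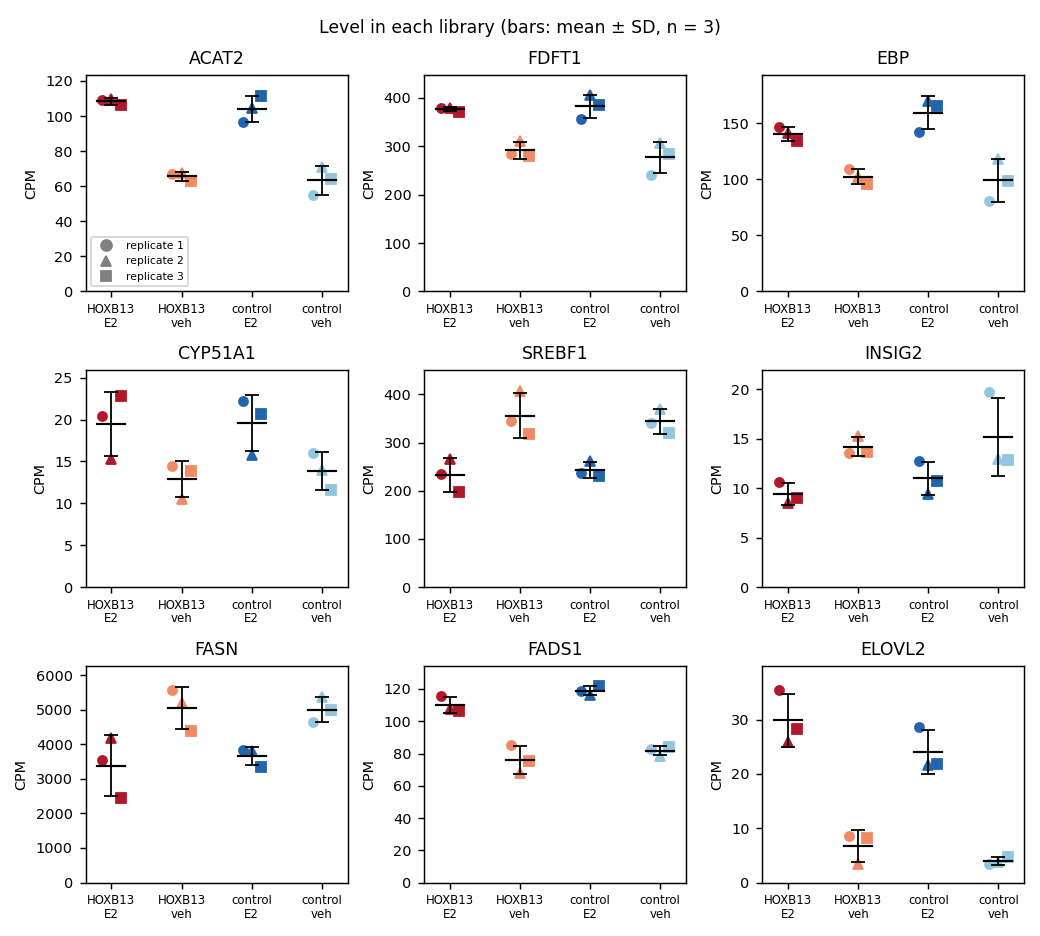
CPM (y axis, from 0) of 9 genes in each library, by group (E2, estradiol; veh, vehicle), with symbols for replicates 1, 2 and 3 and bars for the mean ± SD of 3 libraries. ACAT2, FDFT1, EBP, FADS1 and ELOVL2 stand higher in estradiol and SREBF1, INSIG2 and FASN lower, in HOXB13 cells and in control cells, without overlap between the treatments of the same cells; CYP51A1 overlaps in control cells.

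Over the whole sterol pathway of 25 genes, 6 were higher and 2 lower in estradiol in HOXB13 cells (7.22% and 6.38% of all genes). In control cells 9 were higher and 1 lower (8.65% and 6.72%). With the replicate block the counts were 14 higher and 2 lower in HOXB13 cells (15.5% and 15% of all genes) and 16 higher and 2 lower in control cells (17.5% and 16.5%). Without the 4 libraries numbered 2 they were 13 higher and 1 lower in HOXB13 cells and 15 higher and 1 lower in control cells. In that fit 1740 of all 14720 tested genes were higher and 1540 lower in HOXB13 cells, and 1914 and 1646 in control cells. With 1 library left out, all tested genes gave 689 to 1205 higher in HOXB13 cells and 861 to 1500 in control cells. The counts of higher sterol pathway genes also rested on single libraries. In HOXB13 cells the count was 1 without HOXB13 vehicle library 1 or HOXB13 estradiol library 3, and 2 without HOXB13 estradiol library 1 or HOXB13 vehicle library 3. In control cells it was 3 when control vehicle library 1 or control estradiol library 3 was left out, and 4 when control estradiol library 2 was. The calls of ACAT2 in both kinds of cells and of FDFT1 and EBP in control cells held in all 12 such fits. The other 6 enzyme calls in control cells were each lost without control vehicle library 1 and without control estradiol library 3: HMGCS1 and IDI1 in 3 of the 12 fits, FDPS in 4, SQLE in 6, DHCR7 in 7 and LSS in 9. In HOXB13 cells the other 5 were each lost without HOXB13 vehicle library 1 and without HOXB13 estradiol library 3: HSD17B7 in 4 of the fits, FDFT1 in 5, and IDI1, SQLE and EBP in 6.

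Of the 5 SREBP regulators, 0 were higher and 2 lower in HOXB13 cells, where 6.38% of all tested genes were lower, and 0 were higher and 1 lower in control cells, where 6.72% were. SREBF1, the gene of the SREBP known for lipogenesis, had 234, 266 and 197 CPM in HOXB13 cells in estradiol and 344, 407 and 317 CPM in vehicle, and 238, 262 and 230.1 CPM in control cells in estradiol against 341, 371 and 320.0 CPM in vehicle. Every estradiol library lay below every vehicle library. On the log2 scale the change was −0.62 ± 0.13 in HOXB13 cells (adjusted p = 0.00445) and −0.50 ± 0.13 in control cells (adjusted p = 0.0141). The call in control cells was lost when estradiol library 1 of those cells was left out (adjusted p = 0.0511) and when library 3 was (adjusted p = 0.0729), whereas that in HOXB13 cells held without any single library. INSIG2, an endoplasmic reticulum anchor of SCAP, had 10.6, 8.55 and 9.05 CPM in HOXB13 cells in estradiol and 13.6, 15.3 and 13.7 CPM in vehicle, and 12.8, 9.44 and 10.8 CPM in control cells in estradiol against 19.8, 13 and 12.8 CPM in vehicle. Control vehicle library 1 was the highest and control estradiol library 1 came close to the other vehicle libraries, without overlap. Its log2 fold change was −0.59 ± 0.18 in HOXB13 cells (adjusted p = 0.0467) and −0.47 ± 0.18 in control cells (adjusted p = 0.104, and 0.0147 with the replicate block). The INSIG2 call in HOXB13 cells was lost without any one of the 6 HOXB13 libraries or without control estradiol library 3, and without the 4 libraries numbered 2 (adjusted p = 0.0909).

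The other 3 regulators did not pass in either kind of cells. INSIG1, itself a known target of SREBPs, had log2 fold changes of 0.00 in HOXB13 cells (95% interval −0.25 to 0.25) and 0.11 in control cells (−0.14 to 0.36). SREBF2, whose promoter held the sterol core, had −0.17 in HOXB13 cells (−0.36 to 0.01) and −0.08 in control cells (−0.26 to 0.11). SCAP, the escort of the precursors, had −0.12 in HOXB13 cells (−0.34 to 0.11) and 0.02 in control cells (−0.20 to 0.25). Each of these intervals lay inside a change of 1.5-fold either way. Of the transport genes, STARD4, a cytosolic sterol carrier, had 0.36 in HOXB13 cells (adjusted p = 0.194, and 0.0265 with the replicate block) and 0.10 in control cells. NPC1, which exports cholesterol from lysosomes, had 0.04 in HOXB13 cells and 0.16 in control cells and did not pass.

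Of the fatty acid genes, ELOVL2, FADS1 and FASN were called. In HOXB13 cells 2 of 14 tested genes were higher in estradiol and 1 lower, where 7.22% of all tested genes were higher and 6.38% lower. In control cells 2 were higher and 0 lower, where 8.65% of all tested genes were higher and 6.72% lower. For control cells, 0 lower genes by edgeR stood beside 1 by DESeq2, and of the lower-fitted genes 1, FASN, was at an unadjusted p under 0.05. The median log2 fold change was −0.01 in HOXB13 cells and 0.04 in control cells. The genes called were an elongase and a desaturase of long polyunsaturated acids, which rose, and fatty acid synthase, which fell.

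ELOVL2, an elongase of long polyunsaturated acids, had 35.4, 25.8 and 28.3 CPM in HOXB13 cells in estradiol and 8.54, 3.43 and 8.21 CPM in vehicle, and 28.7, 21.7 and 21.8 CPM in control cells in estradiol against 3.41, 3.78 and 4.75 CPM in vehicle. The lowest estradiol library was far above the highest vehicle library. The log2 fold change was 2.15 ± 0.27 in HOXB13 cells (adjusted p = 0.000144) and 2.60 ± 0.28 in control cells (adjusted p = 2.9e-05), a rise of 4.43-fold and 6.05-fold. Of the 39 tested genes it had the largest estradiol response in both kinds of cells. FADS1, a front-end desaturase of polyunsaturated acids, had 116, 108 and 107 CPM in HOXB13 cells in estradiol and 85, 67.8 and 75.5 CPM in vehicle, and 118, 116 and 122 CPM in control cells in estradiol against 82.9, 78.5 and 84.1 CPM in vehicle. The groups did not overlap. FADS1 rose by 0.53 ± 0.10 on the log2 scale in HOXB13 cells (adjusted p = 0.00249) and 0.54 ± 0.10 in control cells (adjusted p = 0.00174). Both genes kept their calls in both kinds of cells without any single library of the 12. FADS2, the neighbouring desaturase of the same route, had log2 fold changes of −0.01 in HOXB13 cells (95% interval −0.26 to 0.25) and 0.07 in control cells (−0.18 to 0.32).

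FASN, the fatty acid synthase, had 3535, 4176 and 2439 CPM in HOXB13 cells in estradiol and 5574, 5182 and 4397 CPM in vehicle, and 3829, 3805 and 3349 CPM in control cells in estradiol against 4648, 5359.9 and 4996 CPM in vehicle. HOXB13 estradiol library 3 was the lowest of all 12, and the treatments did not overlap in either kind of cells. The log2 fold change was −0.58 ± 0.17 in HOXB13 cells (adjusted p = 0.033) and −0.45 ± 0.17 in control cells (adjusted p = 0.0866, and 0.00162 with the replicate block). The call in HOXB13 cells was lost without HOXB13 estradiol library 1 or 3, HOXB13 vehicle library 1 or 2, or control vehicle library 3, with an adjusted p of 0.00973 to 0.138 over the 12 such fits.

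The other enzymes of palmitate synthesis did not pass. ACLY, the ATP citrate lyase, had log2 fold changes of −0.06 in HOXB13 cells (95% interval −0.28 to 0.16) and 0.00 in control cells (−0.22 to 0.22). ACACA, the cytosolic acetyl-CoA carboxylase, had −0.14 and −0.23, and was lower in control cells with the replicate block (adjusted p = 0.0303). ACACB, the carboxylase known for restraining fatty acid oxidation, had a low count and log2 fold changes of −0.05 ± 0.35 in HOXB13 cells and 0.74 ± 0.35 in control cells, the second of which passed with the block (adjusted p = 0.0243). ACSS2, which makes acetyl-CoA from acetate, had 0.10 in HOXB13 cells and 0.28 in control cells and also passed there with the block (adjusted p = 0.013). SCD, the desaturase that makes oleate, had −0.06 in HOXB13 cells (95% interval −0.45 to 0.33) and 0.02 in control cells (−0.38 to 0.41), and its library numbered 2 was the lowest of each group. ELOVL1, ELOVL5 and ELOVL6, further elongases, and ACSL1, an acyl-CoA synthetase, had log2 fold changes between −0.06 and 0.19 in HOXB13 cells and between −0.06 and 0.14 in control cells. ELOVL5 averaged 223 CPM in HOXB13 cells in estradiol and 224 CPM in vehicle, and 222 and 229 CPM in control cells. THRSP had 0.41 ± 0.54 in HOXB13 cells and 1.28 ± 0.52 in control cells, where it did not pass (adjusted p = 0.122).

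With the replicate block, 2 fatty acid genes were higher and 1 lower in HOXB13 cells (15.5% and 15% of all tested genes), and 4 were higher and 2 lower in control cells (17.5% and 16.5%). Without the 4 libraries numbered 2 there were 2 higher and 1 lower in HOXB13 cells and 3 higher and 1 lower in control cells. In that fit 1740 of all 14720 tested genes were higher and 1540 lower in HOXB13 cells, and 1914 and 1646 in control cells. Set side by side, 24% of the 25 sterol pathway genes and 14.3% of the 14 fatty acid genes were higher in estradiol in HOXB13 cells, beside 7.22% of all tested genes. In control cells the shares were 36% and 14.3%, beside 8.65% of all tested genes. The medians of the 2 pathways were 0.25 and −0.01 in HOXB13 cells and 0.34 and 0.04 in control cells. No test was made of the difference between the pathways, since the members had been chosen with results of these data known.

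Single libraries were placed by the median over a list of genes. The median log2 position of the 18 sterol enzymes, relative to the mean of control vehicle libraries, was 0.30, 0.35 and 0.39 in HOXB13 estradiol libraries and 0.04, 0.08 and −0.06 in HOXB13 vehicle libraries. It was 0.26, 0.46 and 0.44 in control estradiol libraries and −0.17, 0.16 and 0.02 in control vehicle libraries. All 6 estradiol libraries lay above all 6 vehicle libraries, and control vehicle library 1 was the lowest and control vehicle library 2 the highest of the vehicle libraries. For the 14 fatty acid genes the position was 0.12, 0.05 and 0.04 in HOXB13 estradiol libraries and 0.14, −0.06 and 0.09 in HOXB13 vehicle libraries, which overlapped. It was 0.05, 0.06 and 0.15 in control estradiol libraries and −0.04, −0.03 and 0.03 in control vehicle libraries, which did not overlap but lay close together.

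**Figure D3:**
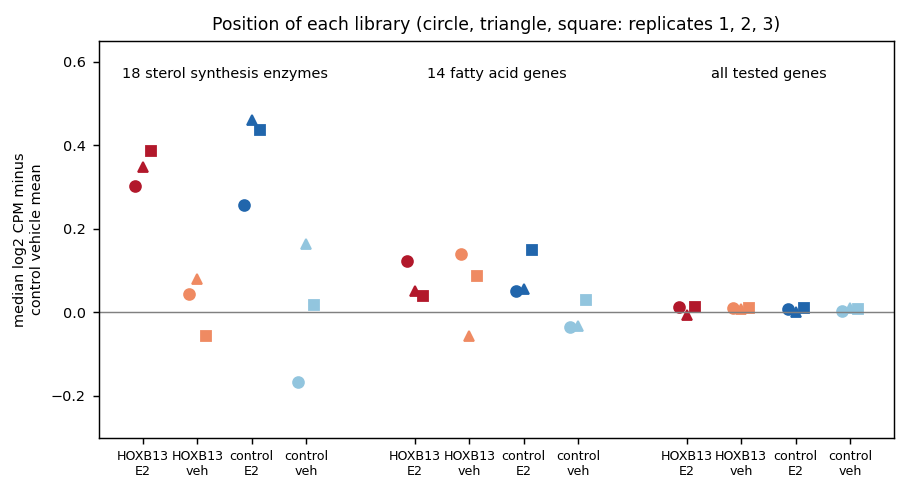
Median log2 CPM of each library minus the mean of control vehicle libraries (y axis) for 18 sterol synthesis enzymes, 14 fatty acid genes and all tested genes, by group (E2, estradiol; veh, vehicle); each point is 1 library, with symbols for replicates 1, 2 and 3. The estradiol libraries lie at 0.26 to 0.46 for the sterol enzymes and the vehicle libraries at −0.17 to 0.16. The median of the fatty acid genes stays between −0.06 and 0.15 in every library, though single genes moved further.

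In the main fit, of group means over all 12 libraries, ectopic HOXB13 left these genes with no detected change, whereas some alternative fits called 1. In vehicle, 0 of the 39 genes were higher or lower in HOXB13 cells by edgeR's quasi-likelihood test, where 0.0203% of all tested genes were higher and 0% lower, and 1 gene, ELOVL2, had an unadjusted p under 0.05. In estradiol the count was also 0, where 0.0135% of all genes were higher and 0% lower, and again 1 gene, ELOVL6, had an unadjusted p under 0.05. DESeq2 and limma-voom called 0 of them in either condition. With the replicate block, 0 of 39 were called in vehicle (0.189% of all genes higher and 0.216% lower) and 1 was higher in estradiol (0.142% higher and 0.25% lower). Without the 4 libraries numbered 2, 1 was higher in vehicle, where 28 of all 14720 tested genes were higher and 9 lower. In estradiol 0 were called in that fit, where 8 of all tested genes were higher and 13 lower. The median log2 difference was 0.02 for the sterol pathway and 0.05 for fatty acid genes in vehicle, and −0.07 and −0.06 in estradiol. In vehicle the 95% interval lay inside a 1.5-fold change either way for 36 of the 39 genes, and in estradiol for 34.

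ELOVL6, which lengthens palmitate, was the gene called with the block. It had 32.4, 26.7 and 35.4 CPM in HOXB13 cells in estradiol and 23.1, 20.5 and 26 CPM in control cells in estradiol, without overlap, and 27.6, 25.2 and 29.9 CPM in HOXB13 cells in vehicle and 20.2, 21.2 and 28.7 CPM in control cells in vehicle, with overlap. The log2 difference was 0.44 ± 0.16 in estradiol (adjusted p = 0.999, and 0.0488 with the block) and 0.24 ± 0.16 in vehicle (adjusted p = 1). ELOVL2, in vehicle, differed by 0.76 ± 0.28 (adjusted p = 1). HOXB13 vehicle libraries 1 and 3 lay above all control vehicle libraries while library 2 lay among them, and without the 4 libraries numbered 2 the difference was 1.04 (adjusted p = 0.0226). In estradiol ELOVL2 differed by 0.31 ± 0.25, with overlap.

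**Figure D4:**
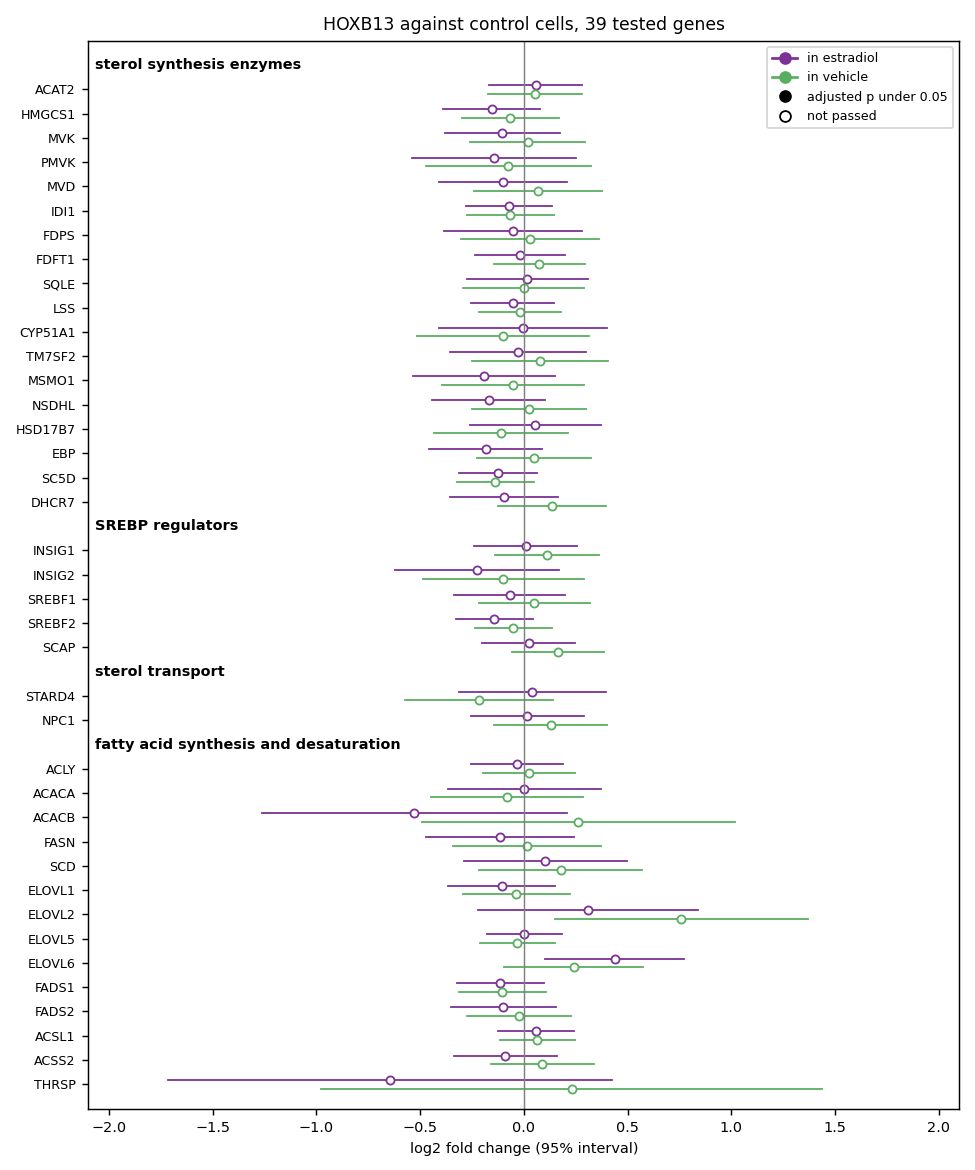
Log2 fold change of HOXB13 against control cells (x axis, with 95% intervals) for the 39 tested genes, in estradiol (purple, upper) and in vehicle (green, lower); open points did not pass the adjusted p threshold. All points are open, and the widest intervals are those of THRSP and ACACB, the genes with the lowest counts.

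The estradiol responses of the 2 kinds of cells were compared directly by the interaction, the response in HOXB13 cells minus that in control cells. By edgeR's quasi-likelihood test 0 of the 39 genes passed, with 0% of all tested genes higher or lower, 0 of the 39 had an unadjusted p under 0.05, and DESeq2 and limma-voom called 0. The difference was fitted below 0 for 30 of the 39 genes and for 7568 of all 14799, and its median was −0.09 for the sterol pathway and −0.07 for fatty acid genes. The largest differences were in genes of low count, with −0.87 ± 0.75 for THRSP and −0.79 ± 0.49 for ACACB. For ELOVL2 the difference was −0.45 ± 0.38, for EBP −0.23 ± 0.18 and for ACAT2 0.00 ± 0.15. The 95% interval lay inside a 1.5-fold difference either way for 23 of the 39 genes and inside a 2-fold difference for 36. Differences within these intervals could have gone undetected with 3 libraries a group.

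Genes around the 2 pathways were counted from companion lists, to be read beside the shares of all tested genes. Those were 7.22% higher and 6.38% lower in HOXB13 cells and 8.65% higher and 6.72% lower in control cells. With the replicate block they were 15.5% and 15% in HOXB13 cells and 17.5% and 16.5% in control cells. Of 12 tested genes of isoprenoid branches and accessory sterol proteins, 2 were higher and 0 lower in estradiol in HOXB13 cells and 2 higher and 0 lower in control cells (with the replicate block, 4 and 0 in HOXB13 cells and 5 and 1 in control cells). TMEM97, a sterol-regulated membrane protein, rose by 0.89 ± 0.13 on the log2 scale in HOXB13 cells (adjusted p = 0.000555) and by 1.09 ± 0.13 in control cells (adjusted p = 8.89e-05). The other call in HOXB13 cells was LBR, a sterol reductase of the inner nuclear membrane (0.48), and in control cells PDSS1, which builds the side chain of ubiquinone (0.77). Of 11 tested genes of sterol efflux, esterification and the LXR receptors, which sense oxysterols, 0 were higher and 3 lower in HOXB13 cells and 0 higher and 4 lower in control cells (with the block, 1 and 5 in each). ABCG1, a sterol exporter, had 16.6, 16.1 and 17.5 CPM in HOXB13 cells in estradiol and 35.7, 32.8 and 35.4 CPM in vehicle, and 22.5, 20.5 and 20.1 CPM in control cells in estradiol against 41.9, 39.9 and 35.2 CPM in vehicle. It fell without overlap, with a log2 fold change of −1.05 ± 0.11 in HOXB13 cells (adjusted p = 3.81e-05) and −0.89 ± 0.11 in control cells (adjusted p = 8.61e-05). The exporter ABCA1 fell with it (−1.93 in HOXB13 cells and −1.81 in control cells), as did LPCAT3, a phospholipid remodelling enzyme (−0.68 and −0.48). MYLIP, a ubiquitin ligase for lipoprotein receptors, passed in control cells (−0.61), and its −0.33 in HOXB13 cells passed with the block (adjusted p = 0.0425). Of 9 genes of SREBP cleavage and INSIG turnover, 0 were higher and 1 lower in HOXB13 cells and 1 higher and 1 lower in control cells (with the block, 3 and 1 in HOXB13 cells and 3 and 2 in control cells). SEC24D, a coat protein of vesicles that leave the endoplasmic reticulum, fell in both (−0.58 in HOXB13 cells and −0.56 in control cells), and ERLIN1, which takes part in INSIG degradation, rose in control cells (0.42).

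Some reads could belong to neighbours, since the strand setting of the counting is not given in the sources used here. In GENCODE annotation of GRCh38, used for neighbours alone, 9.23% of the exon bases of ACAT2 lie opposite TCP1, a chaperonin subunit, whose log2 fold change was 0.30 in HOXB13 cells (adjusted p = 0.0794) and 0.42 in control cells (adjusted p = 0.0152), and 26.5% opposite SOD2. FADS1 and FADS2 share 490 exon bases on opposite strands, and 6.92% of the exon bases of SREBF1 lie opposite RAI1, which did not pass. FDPS has several processed pseudogenes, which had 3 counts at most, and the copy HSD17B7P2 had 5 to 30 counts beside 249 to 450 for HSD17B7.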

How the data were processed

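RNA of T47D cells was sequenced in 12 libraries, 3 for each combination of genotype and treatment. Per gene symbol, the deposited table gives raw counts, as its whole numbers with unequal sums show, and every column was matched to a sample by its title. The authors used FastQC, STAR, Picard and HTSeq with GRCh37 and hg19, per the submitters' processing notes. Their versions, annotation and strandedness were not given in the sources used here.

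Low counts were filtered by filterByExpr of edgeR on the 4 groups, with a minimum count of 10 and a minimum total of 15, and 14799 genes passed. Levels are CPM from TMM-scaled library sizes (factors 0.974 to 1.04), as mean ± SD. Depth was 17679824 to 21385996 counts, so 1 count was worth 0.0479 to 0.0542 CPM. A robust quasi-likelihood fit of group means over all 12 libraries (edgeR 4.0.16, R 4.3.3) gave each test, and p-values were adjusted by Benjamini-Hochberg over the 14799 genes, with 0.05 as threshold. It compared estradiol with vehicle in each kind of cells, HOXB13 with control cells in each treatment, and the 2 estradiol responses with each other (the interaction). Exact permutation tests were not used, because with 3 libraries a group their two-sided p cannot fall below 0.1. Scripts were tested on simulated data. No pair of libraries in a group agreed within counting noise (chi-square over its degrees of freedom 6.65 to 42.5).

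The labels give each group replicates 1 to 3. Deviations of same-numbered libraries from their group means were correlated, across genes, at 0.123 to 0.457 in the 4 comparisons between groups, above the minimum of 0.1, so values from a blocked fit on that number are given where they change a call or move a count by over 1.5-fold. A shift of the libraries numbered 2 alone also makes such correlations, and the meaning of the numbers is not stated in the labels. Alternatives were limma-voom (limma 3.58.1), DESeq2 1.42.0, its size factors within edgeR, other filters, the 2 groups alone, the block, fits minus libraries numbered 2, the sterol list without its regulators, and leaving out each library.

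Members and companion lists were chosen with earlier results of these data known, so no list was tested as a set. Every member is accounted for, members called in any comparison have their value in every library, and companion genes are named where called, up to 4 a list, apart from a gene that is not reported here. Promoters and gene overlaps came from RefSeq GRCh38.p14 and GENCODE tables by symbol, and no coordinates were joined to the counts.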

Additional observations from a re-analysis of the deposited data

How the results depend on the processing

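The 44 gene results recomputed were those called in the main fit or with the replicate block, a choice that favours a stable sign. None of them changed sign under any of the alternatives run. Results near 0 outside these 44 could change sign. Without libraries numbered 2, SCAP in control cells went from 0.02 to −0.06 and TM7SF2 from −0.06 to 0.003. The medians of both pathways moved by less than the spread between libraries, but medians near 0 changed sign when 1 library was left out. For estradiol in HOXB13 cells the fatty acid median of −0.01 reached 0.04 (without HOXB13 vehicle library 1). For HOXB13 against control cells in vehicle, the fatty acid median of 0.05 fell to −0.01 (without HOXB13 vehicle library 1) and the sterol median of 0.02 to −0.05 (without control vehicle library 1). In estradiol the fatty acid median of −0.06 reached 0.0008 (without HOXB13 estradiol library 3). The counts of calls moved. For sterol pathway genes higher in estradiol, 6 in HOXB13 cells and 9 in control cells, the replicate block gave 14 and 16, fits minus the 4 libraries numbered 2 gave 13 and 15, DESeq2 gave 10 in HOXB13 cells, and fits of the 2 groups alone gave 5 in control cells. Over all tested genes, the block gave 15.5% higher in HOXB13 cells and 17.5% in control cells. DESeq2 gave 1318 of 14799 higher in HOXB13 cells. Without libraries numbered 2, 1740 of 14720 were higher in HOXB13 cells and 1914 in control cells. For sterol pathway genes lower in estradiol, 2 in HOXB13 cells and 1 in control cells, the block gave 2 in control cells, limma-voom and the fits minus libraries numbered 2 each gave 1 in HOXB13 cells, and leaving out the SREBP regulators gave 0 in both. For fatty acid genes higher, the block gave 4 in control cells. For fatty acid genes lower, 1 in HOXB13 cells and 0 in control cells, the fit of the 2 groups alone gave 0 in HOXB13 cells, and in control cells DESeq2, no filter on low counts, the fits minus libraries numbered 2 and the 2 groups alone each gave 1 and the block 2. Of all 14799 tested genes, limma-voom gave 913 lower in HOXB13 cells and DESeq2 gave 1287 lower in control cells. The block gave 15% lower in HOXB13 cells and 16.5% in control cells. Without libraries numbered 2, 1540 of 14720 were lower in HOXB13 cells and 1646 in control cells. In HOXB13 against control cells, 1 fatty acid gene was higher in vehicle with no filter or without libraries numbered 2, and 1 in estradiol with the block. Without libraries numbered 2, 28 of all 14720 tested genes were higher and 9 lower in vehicle. With the block, 0.142% of all tested genes were higher and 0.25% lower in estradiol. Counts over all tested genes are not given here for no filter and for the 2 groups alone. The block changed no other count by over 1.5-fold among these.

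Leaving out 1 library at a time, sterol genes higher in estradiol numbered 1 to 8 in HOXB13 cells and 3 to 11 in control cells, and sterol genes lower 1 to 2 and 0 to 1. Counts over all tested genes moved too. They were 689 to 1205 higher and 527 to 1027 lower in HOXB13 cells, and 861 to 1500 and 587 to 1258 in control cells. Fatty acid genes lower numbered 0 to 1 in HOXB13 cells and 0 to 1 in control cells, where the 1 came without HOXB13 estradiol library 3. The sterol genes lower in control cells numbered 0 without control estradiol library 1 or 3. Over the 44 gene results and 12 libraries, 440 fits kept the call, 73 lost it and 15 gained it. The causes were not tested. With 3 libraries a group, 95% intervals of the difference in estradiol response stayed inside 1.5-fold for 23 of 39 genes. Differences within the intervals could have gone undetected, and the values of THRSP and ACACB were imprecise at their low counts.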

Other observations

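The use of fatty acids was counted from further companion lists. Of 18 tested genes of fatty acid oxidation, 0 were higher and 2 lower in estradiol in HOXB13 cells, where 7.22% of all tested genes were higher and 6.38% lower. In control cells 0 were higher and 3 lower, where 8.65% of all tested genes were higher and 6.72% lower. With the replicate block the counts were 1 and 5 in HOXB13 cells (15.5% and 15% of all tested genes) and 2 and 6 in control cells (17.5% and 16.5%). CPT1A, which admits acyl groups to mitochondria, had 234, 202 and 238 CPM in HOXB13 cells in estradiol and 342, 283 and 342 CPM in vehicle, and 225, 202 and 235 CPM in control cells in estradiol against 339, 286 and 314 CPM in vehicle. The treatments did not overlap, and the log2 fold change was −0.52 ± 0.11 in HOXB13 cells (edgeR, adjusted p = 0.00625) and −0.50 ± 0.11 in control cells (adjusted p = 0.00666). PPARA, a nuclear receptor that drives oxidation genes, passed in control cells (−0.78), and in HOXB13 cells its −0.63 passed with the replicate block (adjusted p = 9.83e-05). Of 17 tested genes of acyl-CoA use and triglyceride synthesis, 0 were called in HOXB13 cells, and 1, the elongase ELOVL3, was higher in control cells (4 with the block, log2 fold change of ELOVL3 0.95, against 0.24 in HOXB13 cells), at 1.45 to 3.83 CPM over all libraries.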
